A study of Rattus norvegicus with 6 samples.

Results

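The platelet-derived growth factor (PDGF) genes were examined in RNA sequencing libraries of cultured rat mesenchymal stem cells (MSC) of 2 origins. The family consisted of 7 genes, found in the table by their symbols and listed with earlier results of these data known: the ligands Pdgfa, Pdgfb, Pdgfc and Pdgfd, the receptor kinases Pdgfra and Pdgfrb, and the receptor-like gene Pdgfrl. All 7 were found among the 30498 genes of the count table, and all 7 passed the filter on low counts, as did 14836 genes in total. The cells labelled rcMSC (3 libraries) came from cranial bone marrow, and those labelled rbMSC (3 libraries) from marrow of femurs and tibias. Both groups are labelled wild type, and no source used here gives strain, age, sex or passage. Whether replicate libraries were grown from different animals or cultures is not stated, so the p-values cover the spread among the libraries at hand, which may be technical. The series title concerns transplantation of cranial MSC after spinal cord injury, and the comparison asks how the expression of the 2 kinds of culture differs.

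PDGF ligands act as dimers of disulphide-linked chains. They bind a pair of receptor tyrosine kinases, alpha (Pdgfra) and beta (Pdgfrb), which dimerise, phosphorylate each other and recruit adaptors of the RAS, PI3 kinase and phospholipase C pathways. PDGF-A and PDGF-B chains are cut by furin-like proteases inside the cell, whereas PDGF-C and PDGF-D carry a CUB domain that is removed outside the cell, by proteases such as tissue plasminogen activator and urokinase. PDGF is a classical mitogen and attractant for fibroblasts, smooth muscle cells, pericytes and cultured MSC. PDGF receptors are also widely used markers of stromal cells.

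The libraries held 21340290 to 26928079 counts in total. Levels are in CPM, the counts of a gene per 1000000 after scaling each library by its effective size, and a single count corresponded to 0.0364 to 0.0468 CPM. One library stood apart: rcMSC replicate 3 differed from the other two rcMSC libraries with a chi-square per degree of freedom of 42.0 and 42.8 over genes, against 2.69 to 3.16 in all other pairs of 1 group. The markers of mesenchymal stromal cells were present in every library. Of the 7, 4 were called higher and 3 lower in rcMSC, against 22.6% and 23.2% of all genes tested. Col1a1 and Col1a2, the chains of type I collagen, had the highest CPM among them and belonged to those called higher. Eng and Cd44 were also called higher, with log2 fold changes of rcMSC over rbMSC of 0.88 and 0.58. Those called lower were Thy1 (-1.12), Nt5e (-0.99) and Itgb1 (-0.43).

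Both receptor kinases and the ligand Pdgfa were lower in rcMSC than in rbMSC. Pdgfrb was at 52.7% of its rbMSC level, Pdgfa at 51.7% and Pdgfra at 63.7%. The other 3 ligands and Pdgfrl did not pass the threshold, an adjusted p under 0.05 in edgeR's quasi-likelihood test over all genes tested. So 3 of the 7 genes were called lower and 0 higher in edgeR, and 0 were higher at an unadjusted p under 0.05, with DESeq2 or with limma voom. Over all 14836 genes tested, 45.8% were called in either direction, 23.2% lower and 22.6% higher, so being called was common in this comparison. The groups did not overlap in CPM for 4 of the 7 genes, against 57.1% of all genes tested.

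The RefSeq table of promoter windows held 5 of the 7 genes (Pdgfa, Pdgfb, Pdgfc, Pdgfd and Pdgfra). The stretches upstream of Pdgfa and Pdgfra are shown because these are the ligand and the receptor called lower that have an entry. They are given 5′ to 3′ on the gene's strand in the build GRCr8, which is not the build of the count table, so their positions cannot be compared with those below. Capitals mark matches to the motifs searched. The Pdgfa stretch is the 250 bases before the annotated start (plus strand, chr12:20759116-20759365), and the Pdgfra stretch is the 162 bases of its window that lie outside the annotated gene (minus strand, chr14:33408605-33408766).
Pdgfa: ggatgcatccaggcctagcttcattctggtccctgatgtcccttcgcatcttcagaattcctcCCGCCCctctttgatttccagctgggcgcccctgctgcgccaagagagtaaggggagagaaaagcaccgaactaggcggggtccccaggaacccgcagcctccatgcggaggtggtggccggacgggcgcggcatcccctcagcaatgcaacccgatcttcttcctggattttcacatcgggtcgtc
Pdgfra: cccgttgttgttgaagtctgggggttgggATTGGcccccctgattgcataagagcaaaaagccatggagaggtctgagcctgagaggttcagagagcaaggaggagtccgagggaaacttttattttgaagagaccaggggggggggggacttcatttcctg

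Both strands of the 250 bases before each start were searched for 6 motifs. These were the GC box GGGCGG, the EGR site GCGNGGGCG (whose GGGCG overlaps the GC box letters), the AP-1 site TGANTCA, the CCAAT box CCAAT, the TATA box TATAAA and the CArG box of SRF. A GC box was found once each in Pdgfa, Pdgfb and Pdgfd, beginning 187, 207 and 114 bases before the start, and in 30.5% of all 33469 windows. The Pdgfra window held no GC box, but a CCAAT box that begins 221 bases before the start (34.0% of windows). It also held an AP-1 site that begins 35 bases before the start (6.34% of windows). That site lies in the part of the window inside the annotated gene, which is not shown. In Pdgfc no motif was found. Most bases of the Pdgfc and Pdgfd windows lie inside the annotated genes, so the search there was largely not of upstream sequence. None of the 5 windows held the letters of the EGR site, the TATA box or the CArG box, which occurred in 4.29%, 12.9% and 1.5% of all windows.

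Pdgfrb, the beta receptor, which binds PDGF-B and PDGF-D dimers, was the most abundant of the family on every scale. The gene (ENSRNOG00000018461) lies on chromosome 18 from 54499964 to 54538843 on the plus strand in mRatBN7.2, the build of the count table. Its level was 1125, 1103 and 1107 CPM in rbMSC replicates 1 to 3 and 562, 582 and 613 CPM in rcMSC replicates 1 to 3. All 3 rcMSC libraries were well below all 3 rbMSC libraries, and the gap was many times the spread within either group. The fitted log2 fold change (rcMSC over rbMSC) was -0.92 (SE 0.06, 95% interval -1.05 to -0.80, edgeR adjusted p = 6.18e-07). This is a 1.90-fold higher level in rbMSC, from 15328 counts or more in each library.

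Pdgfra, the alpha receptor, which binds PDGF-A, PDGF-B and PDGF-C, was less abundant and differed less. It lies on chromosome 14 from 33005839 to 33054335 on the minus strand (ENSRNOG00000002244). Its level was 192, 192 and 191 CPM in rbMSC and 121, 120 and 125 CPM in rcMSC, with no overlap between groups. The log2 fold change was -0.65 (SE 0.05, 95% interval -0.77 to -0.54, edgeR adjusted p = 4.31e-06), or 1.57-fold higher in rbMSC.

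**Figure D1:**
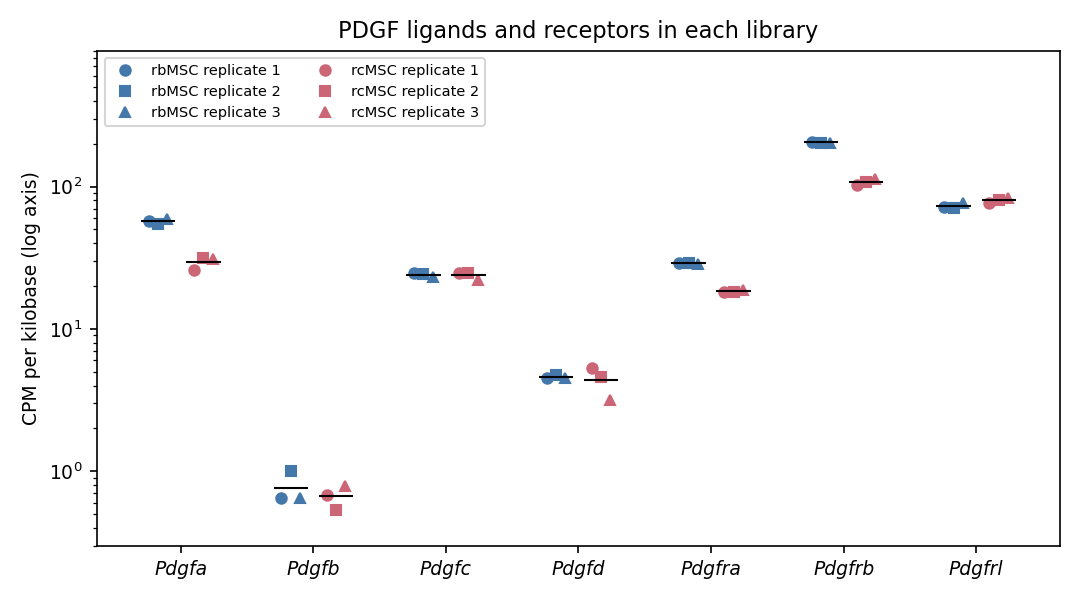
Level of each PDGF gene in each of the 6 libraries, in CPM per kilobase of gene length on a log axis; points are libraries, shaped by replicate number, and black lines are group means of 3. Pdgfrb leads in both groups at 204 (rbMSC) and 108 (rcMSC), and the groups separate downwards in rcMSC for Pdgfa, Pdgfra and Pdgfrb.

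The balance of the receptors was compared within each library, which needs no scaling between libraries. Per kilobase of gene length, the ratio of Pdgfra to Pdgfrb was 0.140, 0.142 and 0.141 in rbMSC and 0.176, 0.169 and 0.167 in rcMSC. In other words Pdgfrb was 7.09 ± 0.07 times the level of Pdgfra in rbMSC and 5.86 ± 0.15 times in rcMSC (SD, n = 3 each). The ratio of Pdgfra to Pdgfrb was higher in rcMSC by 0.27 on the log2 scale, with every rcMSC library above every rbMSC library. An exact two-sided permutation test gave p = 0.1, the smallest value that 3 against 3 libraries allow.

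Pdgfrl encodes a secreted protein that resembles the extracellular part of a PDGF receptor and has no kinase. Its level was 106, 105 and 113 CPM in rbMSC and 113.0, 119.0 and 123.3 CPM in rcMSC, on chromosome 16 from 51347948 to 51407850 (ENSRNOG00000010832, minus strand). The rcMSC libraries all lay above the rbMSC libraries, but the lowest of them was within 0.1 CPM of the highest rbMSC library. The log2 fold change was 0.13 (SE 0.06, 95% interval -0.0023 to 0.26), and it did not pass (edgeR adjusted p = 0.0988). The interval allows a level in rcMSC of up to 1.20 times that in rbMSC. Of the 1483 exon bases of Pdgfrl, 225 are shared with AABR07025896.1 on the opposite strand, and since the strand setting of the counting is not given, reads of these genes cannot be told apart there.

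Among the ligands, Pdgfa was the one that passed the threshold. It encodes the A chain, a ligand of the alpha receptor, on chromosome 12 from 15645541 to 15666497 (ENSRNOG00000001312, plus strand). Its level was 111, 106 and 114 CPM in rbMSC and 50.0, 60.9 and 60.0 CPM in rcMSC. The groups were far apart, and rcMSC replicate 1 was the lowest library. The log2 fold change was -0.95 (SE 0.08, 95% interval -1.13 to -0.77, edgeR adjusted p = 6.73e-06), or 1.93-fold higher in rbMSC.

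Pdgfc, another ligand of the alpha receptor, lies on chromosome 2 from 166316803 to 166493433 (ENSRNOG00000010695, plus strand). It had 65.7, 65.1 and 62.5 CPM in rbMSC and 66.2, 66.7 and 59.3 CPM in rcMSC. The rcMSC libraries lay on both sides of the rbMSC libraries. The log2 fold change was -0.01 (SE 0.07, edgeR adjusted p = 0.936), and its 95% interval in linear terms ran from 0.898 to 1.10 times the rbMSC level.

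Pdgfd, a ligand of the beta receptor, lies on chromosome 8 from 3488423 to 3722395 (ENSRNOG00000029148, plus strand). It had 17.5, 18.4 and 17.4 CPM in rbMSC and 20.8, 17.8 and 12.3 CPM in rcMSC. The rcMSC libraries were spread to both sides of the rbMSC libraries, with rcMSC replicate 3 the lowest of all 6. The log2 fold change was -0.06 (SE 0.16, 95% interval -0.44 to 0.31, edgeR adjusted p = 0.774), and 0.12 without rcMSC replicate 3 (edgeR adjusted p = 0.262). Of its 3886 exon bases, 341 are shared with an unnamed gene on the same strand.

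Pdgfb, which encodes the B chain that binds both receptors, was the least abundant of the family. It lies on chromosome 7 from 111540345 to 111557984 (ENSRNOG00000017197, minus strand). The libraries held 24, 40 and 28 counts in rbMSC and 32, 25 and 34 counts in rcMSC, which is 1.12, 1.73 and 1.11 CPM against 1.17, 0.920 and 1.36 CPM. The groups overlapped. The log2 fold change was -0.20 (SE 0.29, edgeR adjusted p = 0.597), with a 95% interval from 0.553 to 1.36 times the rbMSC level. This interval overlaps that of Pdgfa (0.457 to 0.585).

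**Figure D2:**
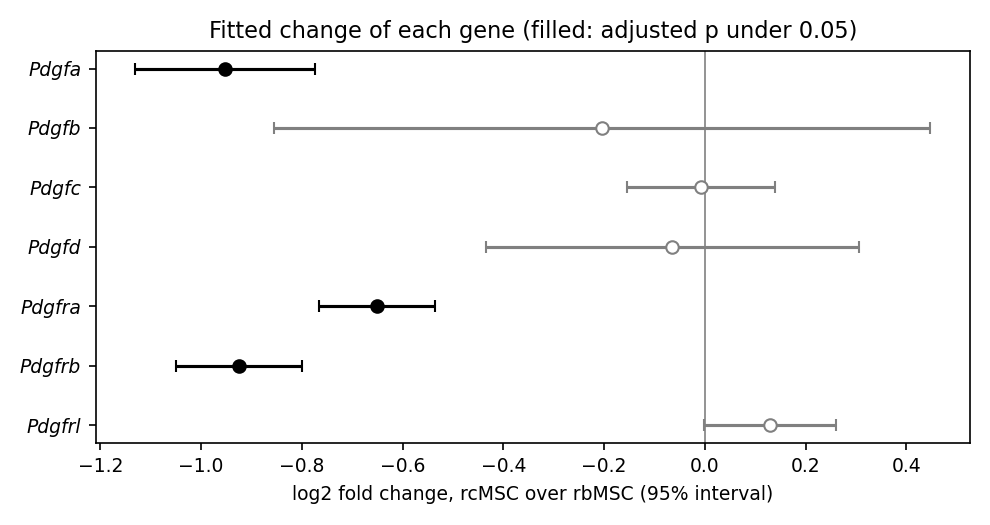
Fitted log2 fold change of each gene, rcMSC over rbMSC, with its 95% interval; filled points passed an adjusted p of 0.05 in edgeR. Pdgfa, Pdgfra and Pdgfrb lie between -0.95 and -0.65, and the interval of Pdgfb is the widest.

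The PDGF genes were ranked against each other in CPM per kilobase, whereas the cell type markers were ranked and summed in CPM. In rbMSC the order was Pdgfrb (204 ± 2.12), Pdgfrl (73.0 ± 2.72), Pdgfa (56.9 ± 2.19), Pdgfra (28.8 ± 0.08), Pdgfc (24.0 ± 0.65), Pdgfd (4.57 ± 0.15) and Pdgfb (0.768 ± 0.21, all SD, n = 3). In rcMSC it was Pdgfrb (108 ± 4.68), Pdgfrl (79.9 ± 3.49), Pdgfa (29.4 ± 3.13), Pdgfc (23.9 ± 1.53), Pdgfra (18.4 ± 0.40), Pdgfd (4.37 ± 1.11) and Pdgfb (0.668 ± 0.13, all SD, n = 3). Pdgfc and Pdgfra thus changed places. No neighbours in either order overlapped between libraries. By its mean over all 6 libraries, Pdgfrb was above 98.5% of the genes tested, Pdgfrl above 96.6% and Pdgfa above 93.0%. Pdgfc and Pdgfra were above 86.0% and 85.7%, Pdgfd above 45.8% and Pdgfb above 13.5%.

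The makeup of the ligand transcripts differed with the level of Pdgfa. The sum of the 4 ligands was 86.3 ± 1.43 CPM per kilobase in rbMSC and 58.4 ± 2.70 in rcMSC (SD, n = 3 each). Of this sum, Pdgfa made up 65.8%, 64.5% and 67.5% in the rbMSC libraries and 45.7%, 51.2% and 54.3% in the rcMSC libraries. The share of Pdgfc was 28.3%, 28.7% and 26.6% in rbMSC and 43.7%, 40.5% and 38.8% in rcMSC, while its level overlapped between groups. Pdgfd contributed 5.13% to 5.60% in rbMSC and 5.54% to 9.46% in rcMSC. Pdgfb contributed at most 1.39% in any library. The receptor kinases together were at 233 ± 2.15 CPM per kilobase in rbMSC and 126 ± 5.04 in rcMSC (SD, n = 3 each). The ratio of Pdgfrb to Pdgfa, which were lower by a like amount, was 3.596 ± 0.13 in rbMSC and 3.68 ± 0.30 in rcMSC and overlapped between groups (SD, n = 3 each). These shares, sums and ratios were chosen after the values were seen and are given as descriptions. An exact permutation test of any of them cannot go below p = 0.1 with 3 libraries against 3.

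**Figure D3:**
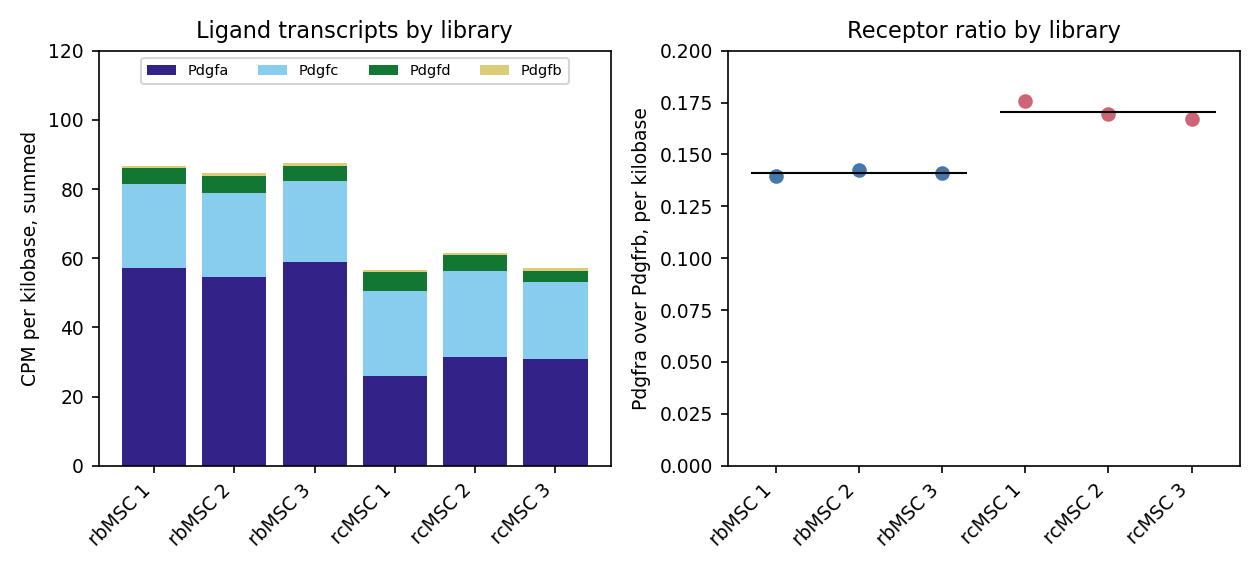
Left, the 4 ligand transcripts stacked in each library, in CPM per kilobase; right, the ratio of Pdgfra to Pdgfrb per kilobase in each library, with group means of 3 as black lines. The rcMSC bars are shorter by their Pdgfa part, and the receptor ratio is 0.141 in rbMSC and 0.171 in rcMSC.

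Pericytes and smooth muscle cells carry high Pdgfrb, and most of their markers were also lower in rcMSC. Of 9 such markers tested, 8 were lower in rcMSC, with a median log2 fold change of -3.88, where 23.2% of all genes tested were lower. The summed level of all 10 was 5255 to 5548 CPM in rbMSC and 2257 to 2508 CPM in rcMSC, and none was at 0 in all libraries. Acta2 and Tagln, of the contractile apparatus, had the highest CPM, with log2 fold changes of -0.93 and -0.89. Rgs5, a marker of pericytes, had 10.1, 9.95 and 8.48 CPM in rbMSC and at most 0.146 CPM in rcMSC. Fewer cells of a type and less RNA per cell cannot be told apart in these bulk libraries, and the part of such cells in the lower Pdgfrb was not tested.

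Blood cells and endothelium are other known sources of PDGF ligands. Of 10 macrophage markers 5 were called lower in rcMSC (23.2% of all genes tested were), with a summed level of 638 to 656 CPM in rbMSC and 356 to 428 CPM in rcMSC, and none was at 0. Those with the highest CPM, not divided by gene length, were Mrc1 (log2 fold change -0.34) and Csf1r (-1.53). Their part in the lower Pdgfa was not tested. Endothelial markers were scarce, with a summed level of 13.8 to 16.4 CPM in rbMSC and 15.9 to 17.8 CPM in rcMSC. Of 6 tested, 1 was higher (Tek, 0.90) and 1 lower (Tie1, -0.50). Tie1 did not pass without rbMSC replicate 2 (edgeR adjusted p = 0.0512), and 2 endothelial markers were higher without rbMSC replicate 3 or rcMSC replicate 1. Among the markers of megakaryocytes and platelets, Ppbp had 0 counts in all libraries and Gp9 had 2. Their summed level was 16.4 to 17.6 CPM in rbMSC and 11.1 to 18.3 CPM in rcMSC, and the highest CPM were those of Pf4 (log2 fold change 0.12, edgeR adjusted p = 0.737) and Gp1bb (-0.63). Pf4 was at 0.38 and passed without rcMSC replicate 3 (edgeR adjusted p = 0.00284).

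**Figure D4:**
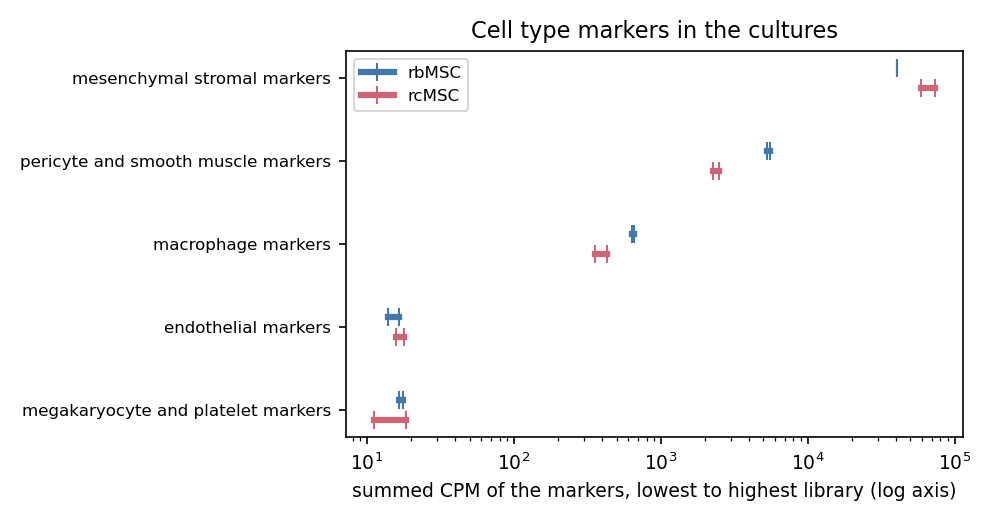
Summed CPM of each list of cell type markers on a log axis; each bar runs from the lowest to the highest of the 3 libraries of a group. Pericyte and smooth muscle markers run from 5255 to 5548 in rbMSC and from 2257 to 2508 in rcMSC, and endothelial and platelet markers stay below 20 CPM.

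Genes that process or hold PDGF ligands differed in both directions. Of these 9 genes 4 were higher and 4 lower in rcMSC, with a median of 0.09, where all genes tested had a median of 0.015 and 45.8% were called. The proprotein convertase Pcsk5 rose from 43.2 ± 2.27 CPM in rbMSC to 285 ± 14.9 in rcMSC (log2 fold change 2.72, SE 0.07, edgeR adjusted p = 1.12e-09), and its relative Pcsk6 was higher by 0.90. Furin, the best known convertase of the A and B chains, was lower, at 119, 124 and 119 CPM in rbMSC and 65.8, 69.1 and 78.5 CPM in rcMSC (log2 fold change -0.76, edgeR adjusted p = 1.51e-05). Of the proteases of the CUB-containing ligands, Plat, which cuts PDGF-C, overlapped between groups (0.09, edgeR adjusted p = 0.346), whereas Plau, which cuts PDGF-D, was lower by -0.69. St14 (matriptase), also a protease of PDGF-D, was lower by -0.47 (edgeR adjusted p = 0.0403). The call did not hold without any 1 of the rbMSC libraries or without rcMSC replicate 1 or 2 (edgeR adjusted p = 0.0717 to 0.138).

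Among the binding partners, Nrp1, a co-receptor of several growth factors, fell from 303 ± 3.51 CPM in rbMSC to 120 ± 21.03 in rcMSC (log2 fold change -1.33, SE 0.11, edgeR adjusted p = 1.05e-05). Lrp1, an endocytic receptor that forms complexes with the beta receptor, was higher by 0.34 (edgeR adjusted p = 0.00654). Sparc, a matrix protein that binds PDGF-B, was higher by 0.53 (edgeR adjusted p = 5.06e-05), with 10277 CPM in rbMSC and 14873 CPM in rcMSC on average.

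Of the adaptors and effectors of the receptors, the test called 3 of 32 higher and 8 lower in rcMSC, with a median of -0.08, where 22.6% of all genes were called higher and 23.2% lower. Without rcMSC replicate 3, 6 were higher and 13 lower. The 3 with the largest change were the SRC family kinase Yes1 (-0.72), the adaptor Nck2 (-0.72) and the exchange factor Vav3 (-0.55). Vav3 did not pass without rbMSC replicate 2 (edgeR adjusted p = 0.065). Inhibitors of the receptors were lower in 6 and higher in 3 of 11, with a median of -0.19. They were led by the adaptor Sla (-1.22), the phosphatase Ptprj (-0.95), which removes phosphate from the beta receptor, and the ubiquitin ligase Cbl (-0.74), which marks activated receptors for breakdown. Ptprj had 86.4, 86.5 and 82.6 CPM in rbMSC and 43.9, 40.3 and 48.1 CPM in rcMSC, a difference of the same sign as that of the receptors.

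Early response genes, which serum and PDGF induce within minutes in quiescent fibroblasts, had a median of -0.56, with 8 of 11 lower in rcMSC and 2 higher (23.2% and 22.6% over all genes tested). Fosb, Egr3 and Fos had the largest changes. Fos had 99.8, 101 and 99.1 CPM in rbMSC and 38.8, 37.0 and 37.6 CPM in rcMSC (log2 fold change -1.40, SE 0.06, edgeR adjusted p = 3.07e-08). Fosb and Egr3 differed by -3.18 and -1.70 on the same scale, and Fosb by -3.77 without rcMSC replicate 3. The count of those higher was 1 in place of 2 without any 1 library other than rcMSC replicate 3. These genes respond to many stimuli, and no source used here gives the medium or serum.

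**Figure D5:**
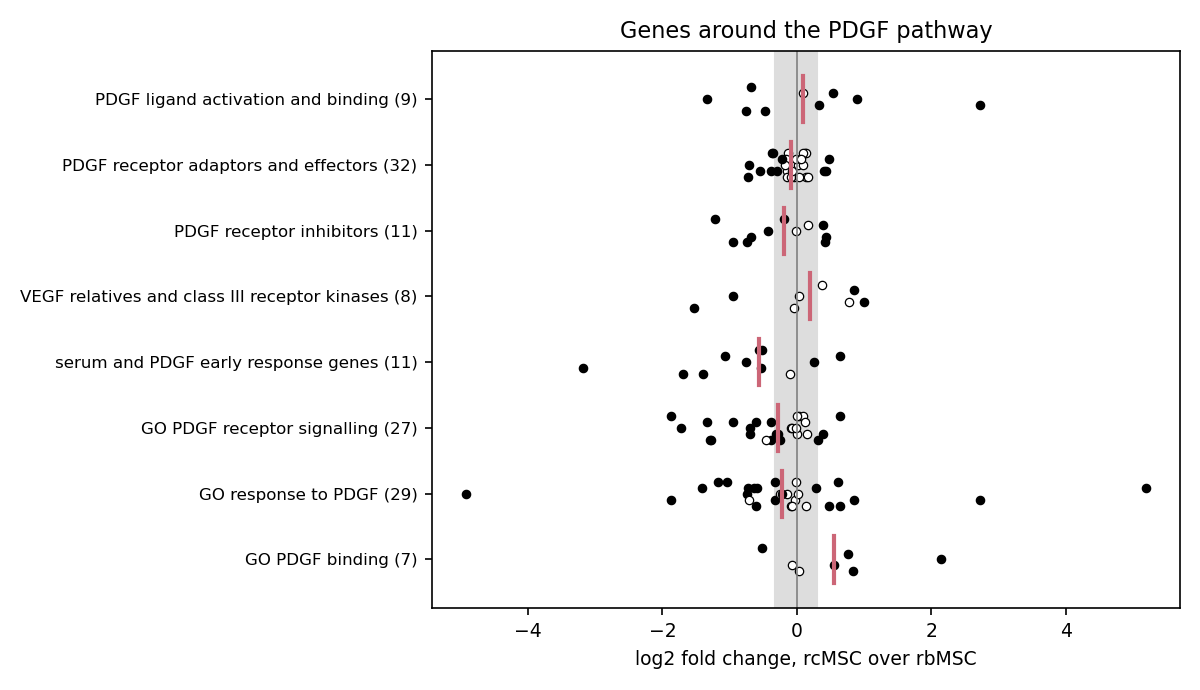
Log2 fold change of each gene of 8 lists around the PDGF pathway, with the number tested in brackets; filled points passed an adjusted p of 0.05 in edgeR, red lines are list medians, and the grey band runs from the lower to the upper quartile of all genes tested. The early response genes have the lowest median, -0.56, and the genes annotated to PDGF binding the highest, 0.55.

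Structural relatives of the family are the VEGF ligands and the class III and related receptor kinases. Of 8 tested, 2 were higher and 2 lower, with a median of 0.20, a share called that is near the 45.8% of all genes. The growth factor Vegfb was higher by 1.00 (edgeR adjusted p = 0.00529), and Vegfc was lower by -0.96 (edgeR adjusted p = 4.46e-05). Csf1r, the receptor kinase of macrophages, had 156, 157 and 157 CPM in rbMSC and 41.4, 43.6 and 77.3 CPM in rcMSC (log2 fold change -1.53, edgeR adjusted p = 0.00295). Without rcMSC replicate 3, 4 were lower.

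Gene ontology terms in the count table gave 3 further sets, chosen after the values were seen and taken without the PDGF genes themselves. Of 27 genes annotated to PDGF receptor signalling, 14 were lower and 3 higher, with a median of -0.28, against 23.2% lower and 22.6% higher over all genes tested. The largest changes were those of the integrin subunit Itgb3 (-1.87), the nuclear receptor Nr4a3 (-1.73) and Nrp1. Of 29 tested genes annotated to the cellular response to PDGF, 13 were lower and 7 higher, with a median of -0.22, to be read against the same shares. They included the growth factor Ptn (5.19), the gap junction protein Gja5 (-4.92, or -5.79 without rcMSC replicate 2) and Pcsk5. Of 7 annotated to PDGF binding, all of them collagens, 4 were higher and 1 lower, with a median of 0.55. Col1a1 and Col3a1 were higher by 0.84 and 0.75. Col2a1, of cartilage, was higher by 2.14 with 8.01, 9.68 and 25.6 CPM in rcMSC and 2.99 to 3.41 CPM in rbMSC. Without rcMSC replicate 3, Col2a1 was at 1.44, and 3 of these collagens were lower.

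The genes most like each PDGF gene were those with the smallest root mean square difference in log2 CPM, centred on each gene's mean, over the 6 libraries and among 11016 genes. For Pdgfrb they were Pam (0.0272) and Acta2 (0.0304), and for Pdgfra Lamb1 (0.0259) and Col14a1 (0.0265). Pdgfa was most like Zswim4 (0.0597) and C1qa (0.0599). For the genes that did not pass, they were Poldip3 and Plcb1 (Pdgfc, 0.0161 and 0.0182), Kctd13 and Dab2 (Pdgfd, 0.0525 and 0.0574), Gtf2f1 and Eftud2 (Pdgfrl, 0.0159 and 0.0209), and Mthfd2l and Hspa4l (Pdgfb, 0.0724 and 0.0779). All these values share the same 6 libraries in 2 groups and are a description. The choice was not stable: with each library left out in turn, these genes were found again in 3 of 12 cases for Pdgfrb, 3 of 12 for Pdgfra and 1 of 12 for Pdgfa, and in at most 7 of 12 for the others.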

How the data were processed

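The deposited values are unnormalized gene counts of paired reads of 150 nt. Per the labels' protocols, the authors made them with featureCounts 2.0.1 from STAR 2.7.9a alignments to mRatBN7.2, after trimming (Trimmomatic 0.39, Trim Galore 0.6.7). The deposited Length column (gene length in bases) was used for CPM per kilobase. The submitters' processing notes name DESeq2 1.20.0. No source used here gives the strand setting, the treatment of multi-mapping reads or the annotation release.

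Libraries were grouped by title. The test was edgeR 4.0.16 (R 4.3.3) quasi-likelihood F (TMM, filterByExpr, robust), adjusted by Benjamini-Hochberg over all genes kept, with 0.05 as threshold. CPM and CPM per kilobase use TMM-scaled library sizes. Each SE was obtained as the log2 fold change over the root of F. The fit was also run on simulated counts, with the same dispersion for all genes and no library set apart. That run therefore does not cover the spread seen in these libraries. Precision at these depths is given by the intervals. Members and gene lists were chosen with earlier results of these data known. The lists name 116 symbols, of which 110 could be analysed. The rule named all PDGF genes, all ligand-processing genes, the 3 largest called changes per list with a mean log2 CPM not below 0, the 2 markers per cell type with the highest CPM and the 2 genes most like each PDGF gene. Other genes named (Rgs5, Gp9, Ppbp and the remaining mesenchymal stromal markers) were chosen after their values were seen. Alternatives were other scalings, filters, DESeq2 1.42.0, limma 3.58.1 voom, dispersions without robust estimation, a replicate block and each library left out. Promoter sequences are from RefSeq (GRCr8). Figures were drawn with matplotlib 3.10.9.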

Additional observations from a re-analysis of the deposited data

How the results depend on the processing

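Pdgfa, Pdgfra and Pdgfrb kept their direction and stayed past the threshold under all 15 alternatives, with log2 fold changes of -1.0 to -0.86, -0.67 to -0.64 and -0.96 to -0.89. Pdgfrl stayed positive and did not pass under any (0.10 to 0.16). Pdgfb, Pdgfc and Pdgfd passed under none, and their sign was not stable. Without 1 library they ranged from -0.34 to 0.037, from -0.034 to 0.045 and from -0.23 to 0.12, and with voom Pdgfc was at 0.033 and Pdgfd at 0.074. Pdgfc was at 0.0057 without rbMSC replicate 1. Pf4 ranged from -0.10 to 0.38 without 1 library. For these the cause was not tested. The difference in the log2 ratio of Pdgfra to Pdgfrb was 0.25 to 0.29 without 1 library.

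Without 1 library, the adaptors higher numbered 3 to 6 and lower 8 to 13, the VEGF relatives lower 2 to 4, the early response genes higher 1 to 2, and the PDGF-binding collagens lower 1 to 3. The macrophage markers higher numbered 0 to 1, the endothelial markers higher 1 to 2 and lower 0 to 1, and the platelet markers higher 0 to 1. With voom, 5 adaptors were higher and 13 lower, 4 VEGF relatives were lower and 2 collagens were lower. With total counts only, 1 early response gene was higher. With no low-count filter, 2 endothelial markers were higher, 0 collagens were lower, and Col2a1 lost its call (adjusted p = 0.061). Over all genes, 2542 to 4512 were higher and 2794 to 4558 lower without 1 library.

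Same-numbered libraries did not deviate together over all genes (correlations -0.0275, 0.018 and -0.0518). With so few libraries per group, these values cannot show whether the numbers mark a shared animal or batch. With the replicate block, 6297 genes were called in place of 6796, 1 early response gene and 2 endothelial markers were higher, and no call among the PDGF genes changed.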
